A study of Arabidopsis thaliana with 6 samples.

Results

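WES1 (GH3.5, locus AT4G27260) and GH3.3 (locus AT2G23170) are the 2 auxin-conjugating GH3 genes described here in Arabidopsis thaliana seedlings. They were taken as the probe sets (an array's sets of short DNA probes, each set made to report 1 transcript) whose array annotation gives WES1 or GH3.3 as the only gene. Each had 1 probe set, among 13513 single-gene probe sets for 13355 genes. Both were picked with their levels in mutant and wild type already known, so their difference between genotypes is given below as a description, without a p-value.

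The data are expression arrays of whole 7-day-old seedlings of the Col-0 accession, in 2 groups of 3 samples that the labels call biological replicates. One group is wild type and the other is cdkf;1-2, a T-DNA insertion mutant of CDKF;1, a plant-specific kinase that activates other cyclin-dependent kinases and to which the study's title gives a role in phosphorylating Ser-7 of the RNA polymerase II tail. Both groups were kept at 22 °C on plates with 0.5% sucrose, in short days (8 h light, 16 h dark), and harvested 4 h into the light period. The labels do not say whether replicates were grown together, so the p-values below measure the spread between these samples, and 1 mutant allele stands for the mutation. The description of the mutant samples also carries the words wild type, while their titles, sources and genotype labels give cdkf;1-2. The transcript of CDKF;1 was not analysed here and cannot serve as a check of these labels.

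GH3 proteins are enzymes that use ATP to join an amino acid to a plant hormone. WES1 and GH3.3 belong to the branch of the family that acts on indole-3-acetic acid, the main auxin, and conjugation to aspartate or glutamate takes auxin out of the active pool. Transcription of both genes is known to respond quickly to auxin itself through auxin response factors, so they are commonly read as auxin-responsive genes as well as enzymes of auxin removal. WES1 can also act on salicylic acid, and plants that overexpress it are dwarfed.

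WES1 had a higher signal in every mutant sample than in any wild type sample. In wild type replicates 1 to 3 its quantile-normalized signal was 343, 353 and 341, and in cdkf;1-2 replicates 1 to 3 it was 619, 489.7 and 489. The wild type samples lay close together, mutant replicates 2 and 3 lay close together above them, and mutant replicate 1 was highest. The mean was 345.5 ± 6.42 in wild type and 533 ± 75.0 in the mutant (SD, n = 3 each). On the scale used for all differences below, log2 of the normalized signal plus 16, WES1 was 0.59 higher in the mutant (SE 0.13, n = 3 per group), or 1.51-fold.

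GH3.3 had about the same pattern at a lower signal. For wild type replicates 1 to 3 the normalized signal was 183, 174.5 and 174, and for cdkf;1-2 replicates 1 to 3 it was 305, 237 and 244. Again the 3 mutant samples lay above all wild type samples, with replicate 1 highest. The mean was 177 ± 5.35 in wild type and 262 ± 37.5 in the mutant (SD, n = 3 each). The log2 difference was 0.52 (SE 0.13, n = 3 per group), or 1.43-fold. Over the whole array the mutant samples lay above all wild type samples for 15.8% of 22746 probe sets. Signals of different probe sets depend on their oligonucleotides, so the higher signal of WES1 does not rank the amounts of the transcripts.

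**Figure D1:**
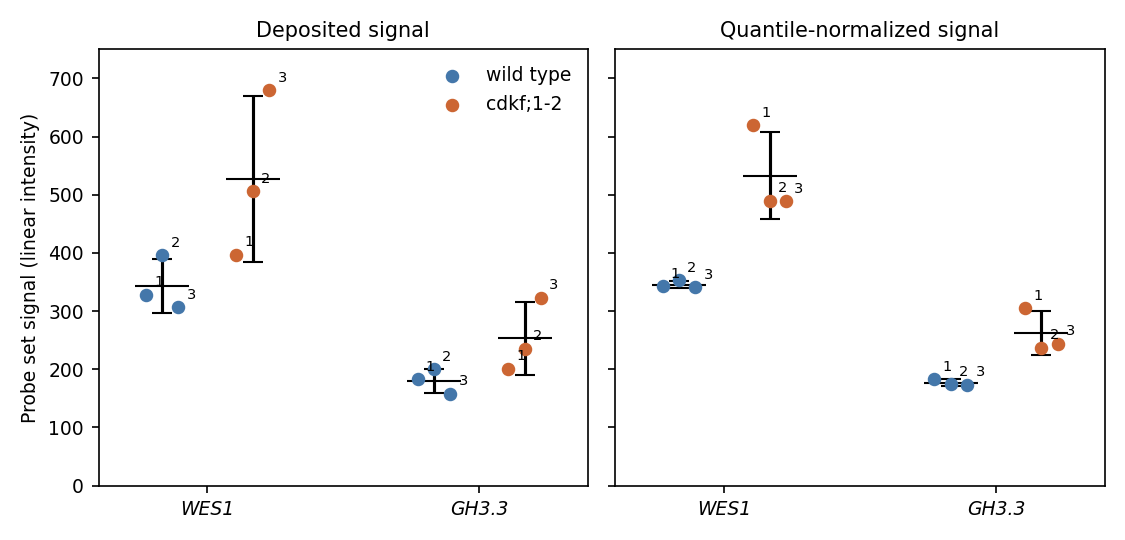
Signal of WES1 and GH3.3 in each array (linear intensity), as deposited on the left and after quantile normalization on the right. Points are single samples numbered by replicate, and bars are the mean and SD of 3 samples. In both panels the 3 cdkf;1-2 samples of each gene lie above the 3 wild type samples, and normalization moves mutant replicate 1 from the lowest of the mutant samples to the highest.

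The arrays were deposited without a common scale, and this touches mutant replicate 1 in particular. In wild type replicates 1 to 3 the median deposited signal was 94.2, 104 and 85.4, while mutant replicates 1 to 3 had medians of 64.4, 89.6 and 115. As deposited, WES1 measured 328, 396 and 307 in wild type and 397, 506 and 679 in the mutant. The groups still did not overlap, but the lowest mutant value lay just above the highest wild type value. As deposited, GH3.3 measured 183, 199.7 and 158 in wild type and 201, 235 and 323 in the mutant, and its groups were also separated by a narrow gap. In the deposited values mutant replicate 3, the array with the highest median, was highest for both genes.

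A rank within one array does not depend on its scale. Quantile normalization sets each signal by its rank, so the ranks restate the normalized signals and are not separate evidence. In wild type replicates 1 to 3, WES1 was brighter than 79.8%, 80.3% and 79.7% of the probe sets, and than 88.9%, 85.8% and 85.8% in mutant replicates 1 to 3. GH3.3 was brighter than 66.2%, 65.0% and 64.9% in wild type and than 77.6%, 72.2% and 72.9% in the mutant. Both genes thus stood at nearly the same rank in all wild type arrays and at a higher rank in each mutant array. The step was larger in mutant replicate 1 than in the other two.

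**Figure D2:**
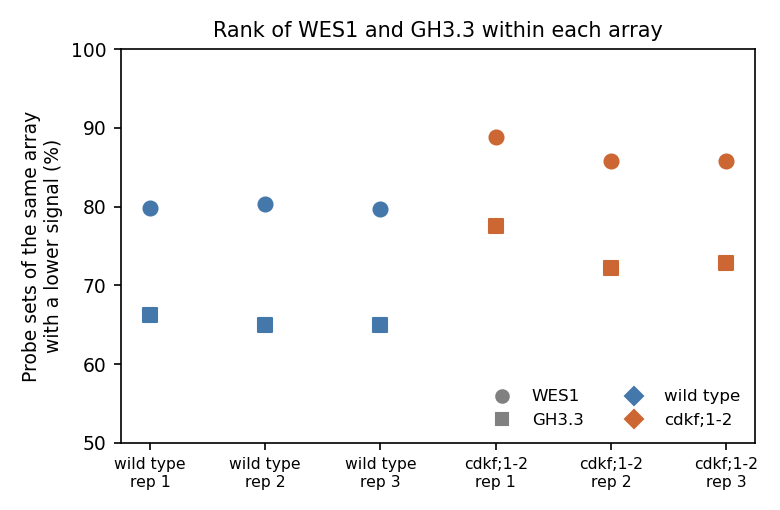
Percentage of the 22746 non-control probe sets of the same array with a lower deposited signal than WES1 (circles) or GH3.3 (squares), for each of the 6 samples. The vertical axis runs from 50% to 100%. WES1 goes from about 80% in wild type (79.7 to 80.3) to 85.8 to 88.9% in cdkf;1-2, and GH3.3 from 64.9 to 66.2% to 72.2 to 77.6%.

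The spread of both genes differed between the groups. On the log2 scale the SD among wild type samples was 0.026 for WES1 and 0.040 for GH3.3, against medians of 0.15 and 0.155 for probe sets within 0.5 of each gene's wild type level. Only 1.91% of 3040 such probe sets had a smaller wild type SD than WES1, and 4.79% of 4054 a smaller one than GH3.3. Among mutant samples the SDs of 0.19 for both genes were close to the medians of 0.185 and 0.189. Mutant replicate 1 was the highest mutant sample for 48.8% and 47.7% of the probe sets near WES1 and near GH3.3, so its position is common to many probe sets of that array.

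The genes also moved alike within the mutant group, but not within wild type. Wild type replicates 1 to 3 deviated from their mean by -0.012, 0.029 and -0.018 for WES1. For GH3.3 they deviated by 0.046, -0.020 and -0.026, with the opposite sign in replicates 1 and 2. Mutant replicate 1 deviated from the mutant mean by 0.22 for both genes, replicate 2 by -0.11 for WES1 and -0.13 for GH3.3, and replicate 3 by -0.11 and -0.09. The deviations of the 2 genes from their group means correlated at r = 0.955 over the 6 samples, which rests largely on mutant replicate 1 and shares the normalization of that array. The ratio of the deposited WES1 to GH3.3 signal, which no scaling of an array changes, was 1.79, 1.98 and 1.94 for wild type replicates 1 to 3, while mutant replicates 1 to 3 gave 1.98, 2.15 and 2.10. These ranges overlapped only through a value near 1.98 in each group. In log2 terms the ratio went from 0.93 ± 0.078 to 1.05 ± 0.063 (SD, n = 3 each), so the mutant's excess was 0.125 larger for WES1 than for GH3.3, which is of the size of 1 to 2 SDs.

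Among all probe sets these are moderate differences. A log2 difference at least as high as that of WES1 was found for 8.17% of the 22746 probe sets, and for 7.80% of those near its wild type level. For GH3.3 the shares were 10.2% and 10.6%. The median difference of all probe sets was -0.01 (SD across probe sets 0.48).

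**Figure D3:**
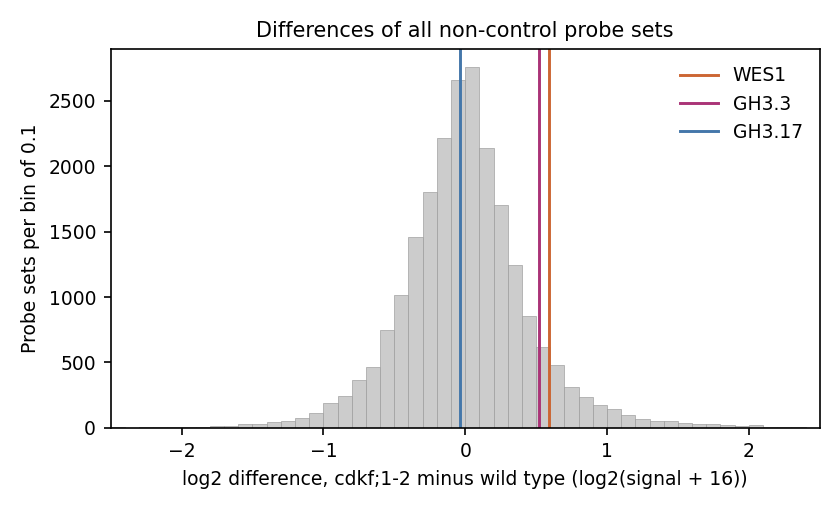
Distribution of the log2 differences (cdkf;1-2 minus wild type, log2 of signal plus 16) of all 22746 non-control probe sets in bins of 0.1, drawn from -2.5 to 2.5. Vertical lines mark WES1 (0.59), GH3.3 (0.52) and GH3.17 (-0.04). WES1 and GH3.3 lie on the right shoulder, and GH3.17 near the centre.

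The differences of WES1 and GH3.3 kept their sign under 13 of 13 other ways of processing the arrays. WES1 ranged from 0.485, without mutant replicate 1, to 0.89, and GH3.3 from 0.41 to 0.74. The highest value of each came from scaling on the hybridisation spikes, bacterial and phage transcripts added just before hybridisation. That scaling raised the median of all probe sets by 0.175, and relative to this median the differences were 0.71 for WES1 and 0.57 for GH3.3. None of the alternatives scaled on the poly(A) controls added to the RNA. Over the array median these controls were 1.70 times as high in the mutant as in wild type. That factor exceeds the 1.51-fold of WES1 and the 1.43-fold of GH3.3. Whether the 2 differences keep their sign on that scale was not tested.

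**Figure D4:**
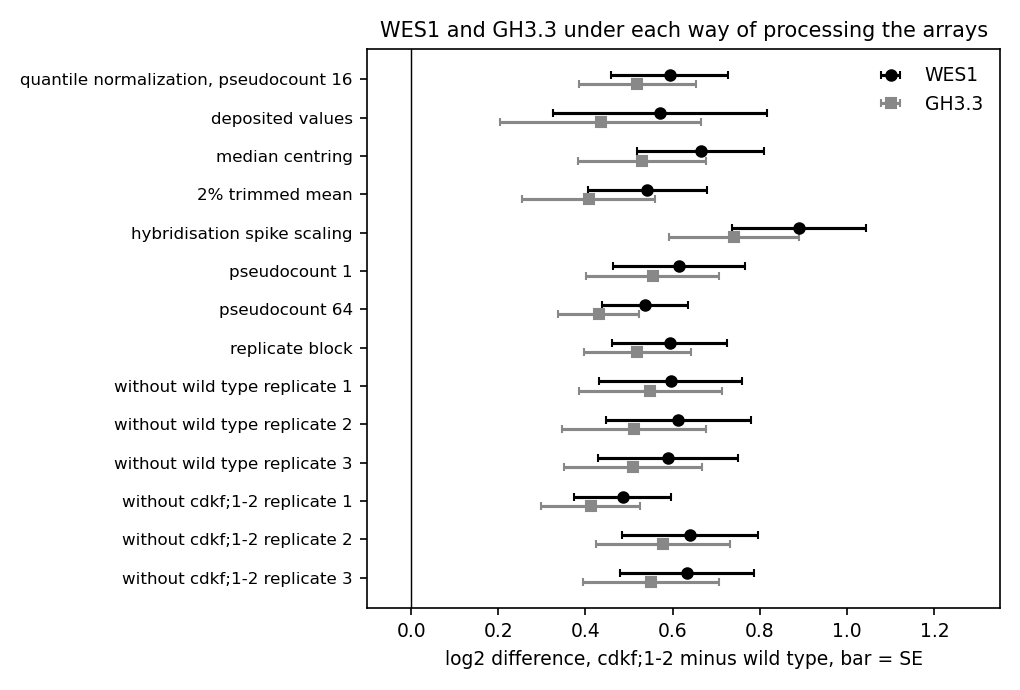
Log2 difference of WES1 (black circles) and GH3.3 (grey squares), cdkf;1-2 minus wild type, under quantile normalization and each of 13 alternatives, with bars for the SE from limma. All values lie above 0, and the largest, 0.89 and 0.74, are those with hybridisation spike scaling.

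Other GH3 genes on the array gave a comparison within the family. Of 19 loci in the family list, 9 besides WES1 and GH3.3 had a single-gene probe set, and 3 of these carry a GH3 symbol in the annotation: GH3.1, GH3.9 and GH3.17. The remaining 6 are given there by locus only. GH3.2, GH3.4 and DFL1 are among the listed loci that had no single-gene probe set in the annotation used, so they are not part of the comparison. Of the 9, 8 had a mean signal below the median of all probe sets. The median log2 difference of the 9 was -0.01, the same as over all probe sets, with 4 above 0 and 5 below. Limma called 1 of the 9, or 11.1%, at an adjusted p under 0.05, against 14.4% of all probe sets.

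GH3.17, which conjugates auxin to glutamate, had the highest signal of these 9 and was not called. For wild type replicates 1 to 3 it measured 312, 253 and 279 after normalization, and for mutant replicates 1 to 3 it measured 334, 260.4 and 231. The groups overlapped (log2 -0.04, SE 0.16, limma adjusted p = 0.913). On the same arrays the deposited signal of WES1 was 1.09, 1.39 and 1.22 times that of GH3.17 in wild type and 1.82, 1.95 and 2.23 times in the mutant. The ratio of GH3.3 to GH3.17 was 0.608, 0.700 and 0.628 in wild type and 0.920, 0.907 and 1.06 in the mutant. All mutant ratios lay above all wild type ratios, for both genes, and neither difference was tested because WES1 and GH3.3 were chosen on this contrast.

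GH3.9 was dimmer, with normalized signals of 52.6, 54.6 and 53.7 in wild type and 121, 91.0 and 64.2 in the mutant. The mutant samples were spread widely and all lay above wild type. Its log2 difference of 0.60 (SE 0.20) was as large as that of WES1 and did not pass over all probe sets (limma adjusted p = 0.0861). It passed in 3 of 14 alternatives, among them without mutant replicate 3 (log2 0.78, limma adjusted p = 0.034, range over alternatives 0.0285 to 0.27). GH3.1, a close relative of GH3.3 in sequence and auxin response in this species, lay near the floor of the array in every sample, at 1.49 to 23.6, and its groups overlapped (log2 -0.08, SE 0.35, limma adjusted p = 0.924).

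The 6 loci without a symbol were all dim. AT5G51470 was the family list's only call, and it fell, wild type samples being at 12.4, 7.30 and 16.7 and mutant samples at 2.68, 1.96 and 2.52 (log2 -0.60, SE 0.15, limma adjusted p = 0.0374). Except for wild type replicate 3, these signals are below the added constant of 16, so the size of the fall depends on that constant. The call also ended without wild type replicate 1 (log2 -0.58, limma adjusted p = 0.109), wild type replicate 3 (-0.49, adjusted p = 0.0971), mutant replicate 1 (-0.63, adjusted p = 0.0505), mutant replicate 2 (-0.59, adjusted p = 0.104) or mutant replicate 3 (-0.59, adjusted p = 0.0977), and its adjusted p ranged from 0.0177 to 0.197 over 13 alternatives. The other five did not pass. AT1G48660, AT1G23160 and AT5G13350 had log2 differences of 0.43, 0.31 and 0.27, and AT5G13380 and AT1G48670 of -0.12 and -0.01 (SE 0.11 to 0.26).

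Auxin can also be removed by glucosylation, methylation and oxidation, and a second list held 7 such genes, 5 of them measured. In this list 3 rose and 0 fell (limma; 6.94% of all probe sets were called higher and 7.42% lower), with a median log2 difference of 0.68. IAGLU, an indole-3-acetate glucosyltransferase, rose: wild type samples measured 556, 654 and 478 and mutant samples 924, 839 and 946 (log2 0.68, SE 0.15, limma adjusted p = 0.0233). Its groups did not overlap after normalization, at a fold of 1.60, but they overlapped as deposited, at 517, 711 and 423 in wild type and 595, 888 and 1367 in the mutant. The call of IAGLU nevertheless ended without wild type replicate 1 (log2 0.68, limma adjusted p = 0.0736), wild type replicate 3 (0.57, adjusted p = 0.0672), mutant replicate 2 (0.72, adjusted p = 0.0547) or mutant replicate 3 (0.63, adjusted p = 0.077), with a range of 0.00833 to 0.378 over 14 alternatives.

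UGT84B1, which also glucosylates auxin, was very dim in wild type, at 2.32, 2.31 and 0.875, and reached 13.3, 11.2 and 15.1 in the mutant. The rise was called (log2 0.71, SE 0.12, limma adjusted p = 0.00879), a size set largely by the added constant of 16. AT1G14120, which the annotation lists by locus only, rose 2.41-fold, from 75.6, 106 and 91.1 to 192, 298 and 239.5 (log2 1.27, SE 0.19, limma adjusted p = 0.00561). Both calls held with any 1 sample left out and ended on the deposited values (limma adjusted p = 0.143 for UGT84B1 and 0.163 for AT1G14120, the highest of their alternatives). UGT74D1, another auxin glucosyltransferase, and AT1G14130 did not pass (log2 -0.28, SE 0.15, and log2 0.24, SE 0.15).

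**Figure D5:**
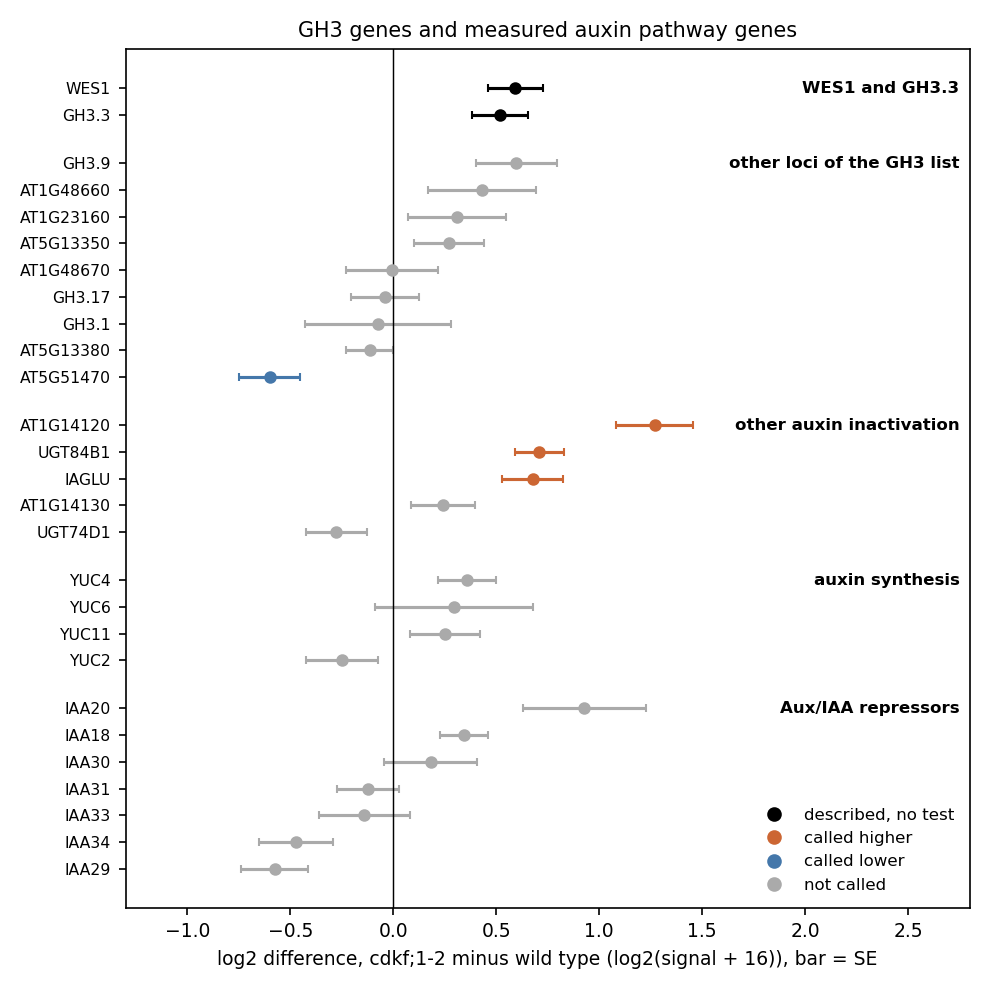
Log2 differences (cdkf;1-2 minus wild type, log2 of signal plus 16) with SE bars for WES1, GH3.3 and the 25 other measured genes of the auxin lists, grouped by list. Black points were described without a test, orange points were called higher, the blue point was called lower, and grey points were not called by limma at an adjusted p under 0.05. The 3 orange points belong to the list of other auxin inactivation.

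Genes that make auxin were measured in 4 of 23 cases, all YUCCA flavin monooxygenases, which catalyse the last step from tryptophan to auxin. None passed, with 1 higher and 0 lower at an unadjusted p under 0.05 (limma, 0 called). At least 14.4% of all probe sets reach that unadjusted threshold, since that share passes the adjusted one. The full share was not counted, so such counts here and below are not read as a result. YUC4 was at 18.4, 19.2 and 12.6 in wild type and 24.1, 30.7 and 22.9 in the mutant (log2 0.36, SE 0.14, limma adjusted p = 0.142). YUC6 had a log2 difference of 0.30 (SE 0.38), with overlapping groups. YUC11 (log2 0.25) and YUC2 (log2 -0.25) overlapped as well.

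Aux/IAA proteins repress auxin response factors. Many of them, though not all, are degraded when auxin binds its receptors, and many of their genes are auxin-induced. Of 29 listed, 7 were measured and limma called 0, with a median log2 difference of -0.12. An unadjusted p under 0.05 (limma) was found for 2 with a higher and 2 with a lower mutant signal. At least 14.4% of all probe sets reach that threshold. IAA20 was at 3.098, 14.0 and 2.98 in wild type and 14.6, 22.6 and 47.4 in the mutant (log2 0.93, SE 0.30, limma adjusted p = 0.0826). It passed without mutant replicate 1 (log2 1.19, limma adjusted p = 0.0409, range over alternatives 0.0267 to 0.306). IAA29 was at 127, 160.2 and 152.5 in wild type and 73.6, 99.0 and 108 in the mutant, lower in every mutant sample (log2 -0.58, SE 0.16, limma adjusted p = 0.0568), and it passed in 4 of 14 alternatives, none of which left out a sample. The list thus held differences of both signs.

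The hydrolases that free auxin from its conjugates (7 listed), auxin carriers (16), receptors (6) and auxin response factors (22) had 0 named single-gene probe sets, so no value is given for them. Over all auxin lists 25 of 129 loci were measured besides WES1 and GH3.3. Of these, 3 rose and 1 fell, 16.0% called against 14.4% of all probe sets, and the median log2 difference was 0.24 against -0.01. Of the salicylic acid list, which WES1's second substrate prompted, 2 of 11 genes were measured and limma called 0. An unadjusted p under 0.05, which at least 14.4% of all probe sets reach, was found for 1, lower in the mutant. The salicylic acid glucosyltransferase gene UGT74F1 had a log2 difference of -0.67 (SE 0.26) and the methyltransferase gene BSMT1 of -0.19 (SE 0.16), both from signals of at most 33.9.

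The genes most like WES1 and GH3.3 over the 6 samples were sought among 5977 single-gene probe sets brighter than the median. The likeness is Pearson's r on the log2 scale, and it reflects mainly the genotype step and mutant replicate 1. For WES1 the 4 closest were FMO, annotated as a flavin monooxygenase (AT1G12200, r = 0.998), AT5G42050 (r = 0.998), AT5G02870 (r = 0.995) and AT3G12130 (r = 0.995). For GH3.3 they were AT5G02870 (r = 0.998), IDH-VI, an isocitrate dehydrogenase gene (r = 0.998), AT3G12130 (r = 0.997) and UBP23, a ubiquitin-specific protease gene (r = 0.997). AT5G02870 and AT3G12130 were on both lists.

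WES1 and GH3.3 correlated with each other at r = 0.993, which placed each at rank 8 among the genes compared with the other. An r above 0.95 was reached by 135 genes for WES1 and 136 for GH3.3. FMO was at 157, 170 and 166 in wild type and 359, 271 and 264 in the mutant, the same order of samples within the mutant as WES1 at a larger difference (log2 0.79, SE 0.15). AT5G42050 was at 451, 452 and 440.3 against 865, 689.6 and 683 (log2 0.71, SE 0.13). AT5G02870, the most like GH3.3, differed less, at 4688, 4621 and 4621 against 6523, 5557 and 5589 (log2 0.34, SE 0.12). These values were selected for their likeness and carry no test.

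The genes next to WES1 and GH3.3 on their chromosomes were examined as well. Of the 3 protein-coding genes on each side, taken in the order of the TAIR10.1 annotation, 5 of 6 were measured beside WES1 and 2 of 6 beside GH3.3. Limma called 0 of them, also at an unadjusted p under 0.05, against 14.4% of all probe sets called at an adjusted p under 0.05. Those beside WES1 had log2 differences of -0.37 to 0.21, with its direct neighbours AT4G27250 at 0.18 (SE 0.14) and AT4G27270 at 0.21 (SE 0.19). Beside GH3.3, the direct neighbour AT2G23160 had a difference of 0.18 (SE 0.32) and AT2G23200 of -0.36 (SE 0.19).

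Several array measures moved with the genotype, as WES1 and GH3.3 did, and their part in the results was not tested. The 25S ribosomal RNA control over the array median was 44.9 to 53.7 in wild type and 85.9 to 109 in the mutant, and the poly(A) controls added to the RNA were 2.00 to 2.15 and 3.24 to 4.07. The ratio of 3' to 5' signal, a measure of RNA integrity and labelling, went for ubiquitin from 1.66 ± 0.073 to 1.43 ± 0.081 and for actin from 2.29 ± 0.22 to 2.81 ± 0.15 (SD, n = 3 each) on one series of control probe sets. On the other series ubiquitin went from 2.89 ± 0.28 to 2.23 ± 0.41, and the actin groups overlapped, at 8.19 to 9.40 in wild type and 9.15 to 9.55 in the mutant. For GAPDH the 2 series went opposite ways, 0.914 to 1.04 on the first and 1.20 to 1.01 on the other. Of 7 leaf markers 5 were measured, and their summed signal was 33570 to 34060 in wild type and 26150 to 27370 in the mutant, with PRK and PSAN called lower. Of 7 root markers 2 were measured, EXPA7 and EXPA18 of root hairs, summing to 210 to 225 and 56.2 to 126, with EXPA18 called lower. No measured marker was at 0, the lowest value being EXPA7 at 4.41 in mutant replicate 1. In whole seedlings, a change in the share of an organ or cell type and a change of RNA per cell cannot be told apart.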

How the data were processed

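The authors deposited 1 linear intensity per probe set and sample, for 22810 probe sets on 6 arrays of total RNA labelled with biotin. The software was GCOS, per the submitters' processing notes. How it scaled the arrays, if at all, is not stated in those notes as used here. No detection calls were used. The number of arrays limits the precision.

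Arrays were brought to a common distribution by quantile normalization, and differences were computed on log2 of the normalized signal plus a pseudocount of 16. After leaving out 64 control probe sets, 22746 entered the model of limma 3.58.1 (R 4.3.3, lmFit and eBayes, genotype only, 4 residual degrees of freedom, two-sided), with Benjamini-Hochberg adjustment over all and a threshold of 0.05. The fit was tested on simulated data. SE denotes the standard error from that model.

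Genes were named from the array annotation, with symbols updated through RefSeq (TAIR10.1). Probe sets with several genes (503) or not listed (8730) were not named. For genes with several probe sets the brightest was used. No coordinates are printed, since the probe sets' genome build was not known here.

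WES1, GH3.3 and the gene lists (auxin, salicylic acid, leaf and root markers) were chosen with earlier results of these data known. Named are both genes, all other measured loci of the GH3 list, up to 4 called genes of each other list (the 2 largest differences where none was called) and the 4 genes most correlated with each. YUC11, YUC2, UGT74D1, AT1G14130, neighbouring genes and the GH3.17 ratios were added after their values were seen. Alternatives were 4 other scalings, pseudocounts of 1 and 64, leaving out the 40% dimmest probe sets, the replicate number as a block and each sample left out.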

Additional observations from a re-analysis of the deposited data

How the results depend on the processing

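WES1 and GH3.3 stayed higher in the mutant under 13 of 13 alternatives each, none of which scaled on the poly(A) controls. The differences moved by more than 1 SD between replicates (0.136 for both) only with hybridisation spike scaling, to 0.889 and 0.741. With 1 sample left out WES1 ranged from 0.485 to 0.64 and GH3.3 from 0.412 to 0.577. Auxin pathway genes called higher, 3 here, numbered 0 on the deposited values and 2 to 4 with 1 sample left out. Those called lower, 1 here, numbered 0 on the deposited values, with median centring and with spike scaling, 2 with the 2% trimmed mean, and 0 to 1 with 1 sample left out. The cause was not tested. Between the groups, the labels link samples only by a replicate number. Deviations of same-numbered samples correlated at 0.298, 0.009 and 0.15 for replicates 1 to 3. Those of differently numbered samples correlated at -0.238 to 0.153. With the replicate block 2 auxin genes were called lower, both differences of WES1 and GH3.3 kept their values, and 3382 probe sets were called. Over the array, 3267 probe sets were called (1579 higher, 1688 lower), against 328 on the deposited values, 2122 with a pseudocount of 1, and 1837, 1496, 2019, 1873 and 1865 without wild type replicates 1, 2 or 3 or mutant replicates 2 or 3. The count was higher, at 4107, without mutant replicate 1, and 3728 with a pseudocount of 64. Median centring called 1466 higher and 1039 lower, and spike scaling 1754 and 427. Low signal limits most of the auxin genes, 17 of 25 lying below the median of all probe sets.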
